A study of Mus musculus with 8 samples.

Results

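The genes examined here encode the machinery of apoptosis, the programmed death of cells. They were chosen by name, as probe sets annotated to a single gene symbol among 33 named members. Of these 33 genes, 31 had at least 1 such probe set, with 66 probe sets in all among the 20380 probe sets with a single symbol, and 12393 genes were measured in total. Bax and Ripk1 had none and were not analysed here. RNA came from the ventral prostate of male FVB mice aged 8 weeks, with 4 arrays from mice transgenic for the polyoma virus middle T antigen (MT) and 4 arrays from wild-type mice. The design sets MT-driven prostate cancer against normal prostate. The labels do not name the promoter that drives MT, and they do not say whether each array came from a separate animal, so p-values measure the spread between these arrays, which may be technical. Levels are log2 values made with RMA, a method that corrects background, gives all arrays the same distribution of values and combines the probes of each set into a single level. Every difference is MT minus wild type.

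Apoptosis runs along 2 routes. In the mitochondrial route, BH3-only proteins relieve or oppose the anti-apoptotic BCL2 proteins, the effectors Bax, Bak1 and Bok open the outer mitochondrial membrane, and released cytochrome c assembles Apaf1 and caspase 9 into the apoptosome. In the death receptor route, Fas and related receptors recruit Fadd and caspase 8, which the caspase-like protein Cflar restrains, and Bid links this route to mitochondria. Inhibitor of apoptosis proteins (IAPs) block caspases or tag signalling complexes with ubiquitin. In the prostate, withdrawal of androgen is known to set off apoptosis of the secretory epithelium.

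The pro-apoptotic genes were more often higher than lower in MT, and no anti-apoptotic gene passed as higher in the main fit. Under some alternative settings 1 or 2 anti-apoptotic genes passed as higher. The classes were chosen with earlier results of these data known. Of 18 measured pro-apoptotic genes, 9 were higher and 2 were lower at an adjusted p under 0.05 in a limma fit across all genes. The higher call of Casp9 and the lower call of Aifm1 were each lost when some single arrays were left out. Of 8 anti-apoptotic genes, 0 were higher in the limma fit and 2 were lower, with 2 higher at an unadjusted p under 0.05 (Bcl2l1 and Mcl1). The lower ones were Bcl2l2 and Birc3, and the other probe set of Birc3 was higher. Bcl2l1 and Mcl1 passed when same-numbered arrays were treated as pairs, a pairing that the labels do not state. Bid, Bak1 and Bcl2l11 led the pro-apoptotic rises. Casp4, an inflammatory caspase, had the largest rise of the 31 genes and Pdcd4, an inhibitor of translation, the largest fall. In bulk tissue, fewer cells of a type and less RNA per cell cannot be told apart.

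These counts stand against a background in which a large share of all genes differed. Of the 12393 genes, 41.1% passed the same threshold, 19.7% higher and 21.3% lower in MT. Of the 31 members, 15 passed, or 48.4%, with 10 higher and 5 lower, a share near that background. Among the pro-apoptotic genes 50% were higher and 11.1% lower, and among the anti-apoptotic genes 0% were higher and 25% lower. The 25% counts Birc3 by its brightest probe set, and with probe sets unique to a transcript 1 of the 8 anti-apoptotic genes was higher (Birc3, 0.37) and 1 was lower (Bcl2l2). The median difference was 0.17 on the log2 scale for the pro-apoptotic genes and -0.16 for the anti-apoptotic genes, against -0.01 for all genes. The mean level of the 18 pro-apoptotic genes ran from 7.45 to 7.50 on the MT arrays and from 7.15 to 7.18 on the wild-type arrays, and that of the 8 anti-apoptotic genes from 8.53 to 8.61 on the MT arrays and from 8.66 to 8.77 on the wild-type arrays. The groups did not overlap in either mean, which describes these members and was not tested. The groups did not overlap for 15 of the 31 single genes, where 40.0% of all genes had no overlap. A change of at least 2-fold past the threshold was seen for 4 members, or 12.9%, against 5.08% of all genes.

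**Figure D1:**
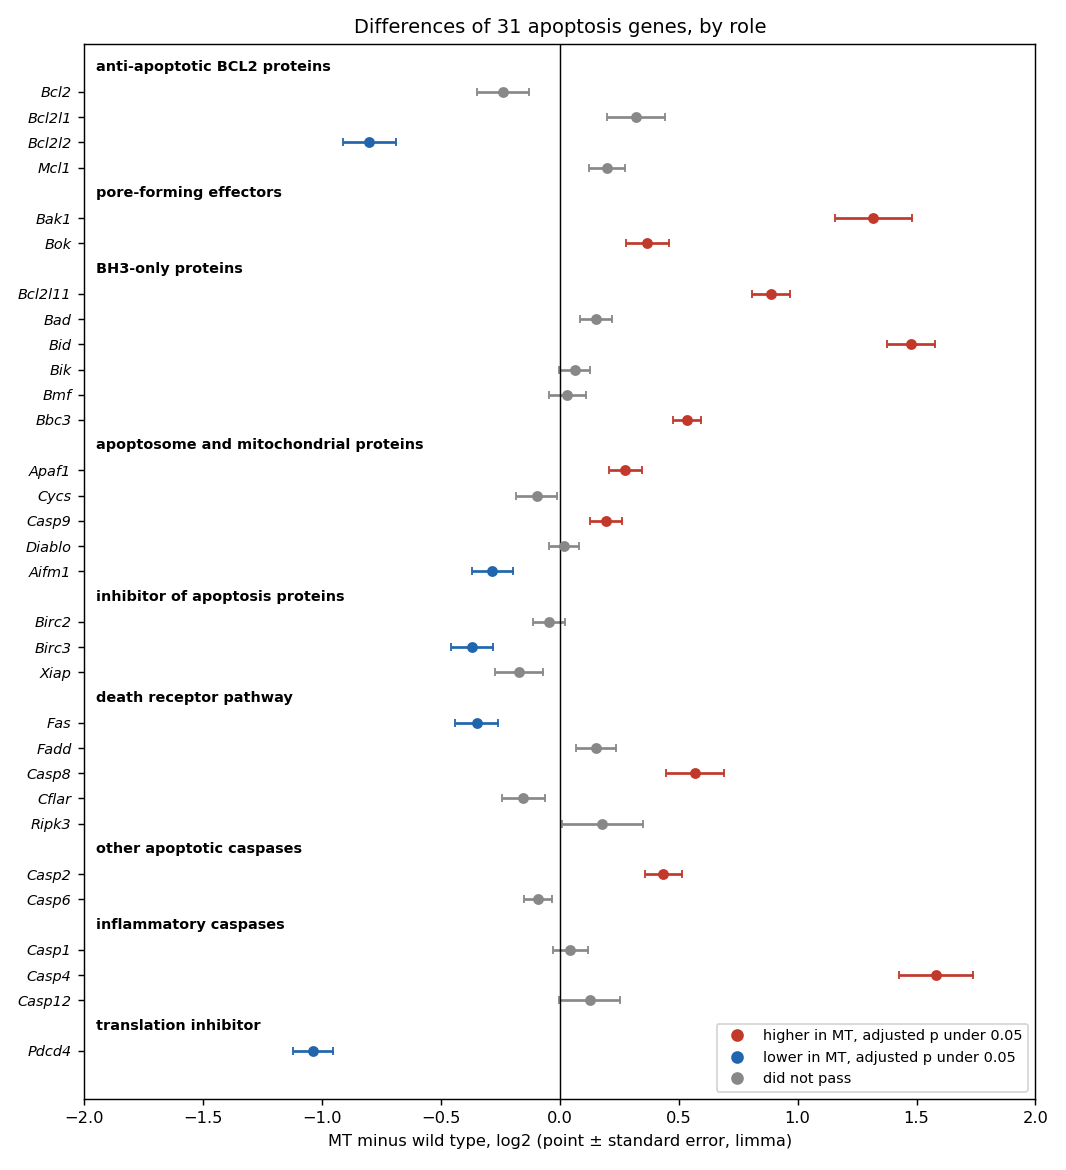
Difference between MT and wild type for the 31 apoptosis genes, grouped by role, on the log2 scale, with points at the limma estimate and bars of 1 standard error (4 arrays per group). Casp4, Bid and Bak1 lie past 1 on the right and Pdcd4 lies past -1 on the left, while 16 genes, in grey, did not pass.

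The promoters of 4 genes are shown as examples, picked by their matches. Casp4, Bcl2l11 and Bbc3 rose and carry the core of the element bound by FOXO factors. Casp1, the neighbour of Casp4, did not pass, read close to background and carries none of the motifs searched. Bid, Apaf1, Casp2, Casp8 and Casp9 rose, Casp9 in only 1 of its 2 probe sets, and carry none of these motifs either. Whether a motif bears on any difference was not tested. Each line is the RefSeq window of 300 bases (build GRCm38.p6) that runs 5′ to 3′ from 250 bases before a gene's annotated start, on the gene's strand. Capitals mark matches on either strand to GTAAACA (FOXO core), to GGGA and CC with any 4 bases between them (NF-kB core), or to GAAA and GAAA with any 2 bases between them (interferon-stimulated element core).
Casp4 (chr9:5308610-5308909, plus strand): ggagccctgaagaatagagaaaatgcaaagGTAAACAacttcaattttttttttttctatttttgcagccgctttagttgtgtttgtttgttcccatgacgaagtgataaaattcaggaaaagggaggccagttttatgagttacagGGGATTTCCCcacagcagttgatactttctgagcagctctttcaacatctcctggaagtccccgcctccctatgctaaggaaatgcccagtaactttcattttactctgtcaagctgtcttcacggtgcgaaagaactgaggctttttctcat
Casp1 (chr9:5298267-5298566, plus strand): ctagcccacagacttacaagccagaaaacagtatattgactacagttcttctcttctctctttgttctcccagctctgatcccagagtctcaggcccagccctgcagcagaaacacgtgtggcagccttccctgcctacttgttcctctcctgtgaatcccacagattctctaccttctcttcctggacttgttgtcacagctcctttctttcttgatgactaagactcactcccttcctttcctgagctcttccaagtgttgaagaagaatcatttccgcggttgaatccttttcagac
Bcl2l11 (chr2:128125788-128126087, plus strand): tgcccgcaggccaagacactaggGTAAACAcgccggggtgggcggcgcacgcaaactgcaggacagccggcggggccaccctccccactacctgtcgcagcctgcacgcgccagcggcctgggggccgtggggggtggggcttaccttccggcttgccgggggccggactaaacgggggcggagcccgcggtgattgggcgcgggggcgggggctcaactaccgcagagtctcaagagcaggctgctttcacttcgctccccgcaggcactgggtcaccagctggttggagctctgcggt
Bbc3 (chr7:16310011-16310310, plus strand): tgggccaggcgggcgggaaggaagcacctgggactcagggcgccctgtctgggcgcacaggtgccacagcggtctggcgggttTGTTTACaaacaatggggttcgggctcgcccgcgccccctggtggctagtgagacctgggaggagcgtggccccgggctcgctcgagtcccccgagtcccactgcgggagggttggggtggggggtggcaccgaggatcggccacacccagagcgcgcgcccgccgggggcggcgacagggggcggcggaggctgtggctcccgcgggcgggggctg
In the Casp4 window the first run of capitals is the FOXO core and the second, GGGATTTCCC, matches the NF-kB core on both strands. The single run of capitals in the windows of Bcl2l11 and Bbc3 is the FOXO core, in Bbc3 on the opposite strand (TGTTTAC). Both genes have further windows, not shown, with matches to the NF-kB core, 1 in Bcl2l11 and 3 in Bbc3.

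RefSeq windows were found for 30 of the 31 genes, 43 windows in all, since some genes have several starts that can overlap, as those of Casp4 do. The FOXO core was in 4 of the 43 windows, or 9.30%, against 3.65% of all 32851 windows. These 4 belong to Casp4, Bcl2l11 and Bbc3, which are 3 of the 10 members that rose. The overlapping windows of Casp4 hold the same site, which is thus counted more than once in the 9.30%. The other windows of Bcl2l11 and Bbc3 lack the core. No other member with a window had it. The NF-kB core was in 11 windows, or 25.6%, against 20.7% of all windows. By gene it was in 5 of 10 that rose and in 2 of 15 that did not pass. Of the 5 lower by their brightest probe set, 3 had it (Aifm1, Bcl2l2 and Birc3, whose direction depends on the probe set). A gene counts here if any of its windows matches. The share of all genes was not computed for any motif, so the counts of genes have no background beside them. The interferon core was in 1 window, that of Cflar, or 2.33% against 3.44% of all windows. A match describes the letters of the window and shows no binding.

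Among the pore-forming effectors, both measured genes rose. Bak1, whose protein opens the outer mitochondrial membrane, read 7.40, 7.48, 7.49 and 7.45 on the MT arrays and 6.24, 6.66, 5.73 and 5.91 on the wild-type arrays. The MT arrays lay close together and all above the more scattered wild-type arrays. The difference was 1.32 ± 0.16 (standard error), 2.49-fold (limma adjusted p = 6.26e-05), and its other probe set gave 1.00 ± 0.14. Bok, a relative of Bax and Bak1 found largely at the endoplasmic reticulum, averaged 7.07 ± 0.07 in MT and 6.70 ± 0.19 in wild type (SD, n = 4 each), a difference of 0.37 ± 0.09 (limma adjusted p = 0.00763). Its groups did not overlap, although wild-type array 4, at 6.97, came close to the lowest MT array, at 6.99.

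Of the 6 BH3-only genes, 3 rose and 3 did not pass. Bid, which caspase 8 cuts to carry the death receptor signal to mitochondria, read 6.79, 6.76, 6.82 and 6.39 on the MT arrays and 5.19, 5.28, 5.06 and 5.33 on the wild-type arrays. All MT arrays were higher, with MT array 4 below the other three. The difference was 1.48 ± 0.10, 2.78-fold (limma adjusted p = 8.35e-07). Its second probe set also rose, by less, at 0.54 ± 0.09.

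Bcl2l11 encodes Bim, which binds all the main anti-apoptotic BCL2 proteins. It read 8.73, 8.83, 8.86 and 8.99 on the MT arrays and 7.93, 7.82, 8.03 and 8.09 on the wild-type arrays, with no overlap. The difference was 0.89 ± 0.08, 1.85-fold (limma adjusted p = 6.39e-06). All 5 of its probe sets were higher in MT, from 0.17 to 0.89, and 3 of the 5 passed. The one at 0.17 read no higher than the highest bacterial control on 2 wild-type arrays. The 0.89 comes from a probe set that matches several transcripts of the gene, and among probe sets without that mark the difference was 0.39 (adjusted p = 0.0105).

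Bbc3 encodes Puma, a BH3-only protein induced by p53 and by FOXO factors. It read 6.70, 6.67, 6.71 and 6.79 on the MT arrays and 6.18, 6.17, 6.23 and 6.16 on the wild-type arrays. Both groups were tight and did not overlap, and the difference was 0.53 ± 0.06 (limma adjusted p = 2.62e-05). Bad, which is silenced by phosphorylation downstream of survival kinases, differed by 0.15 (95% interval 0.00 to 0.30, adjusted p = 0.0991). Its wild-type array 3, at 7.97, stood above the other wild-type arrays at 7.74 to 7.76, and without it Bad was 0.21 higher in MT (adjusted p = 0.0179). Bik differed by 0.06 (95% interval -0.08 to 0.21) and Bmf, which is tied to the cytoskeleton until released, by 0.03 (95% interval -0.14 to 0.21).

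**Figure D2:**
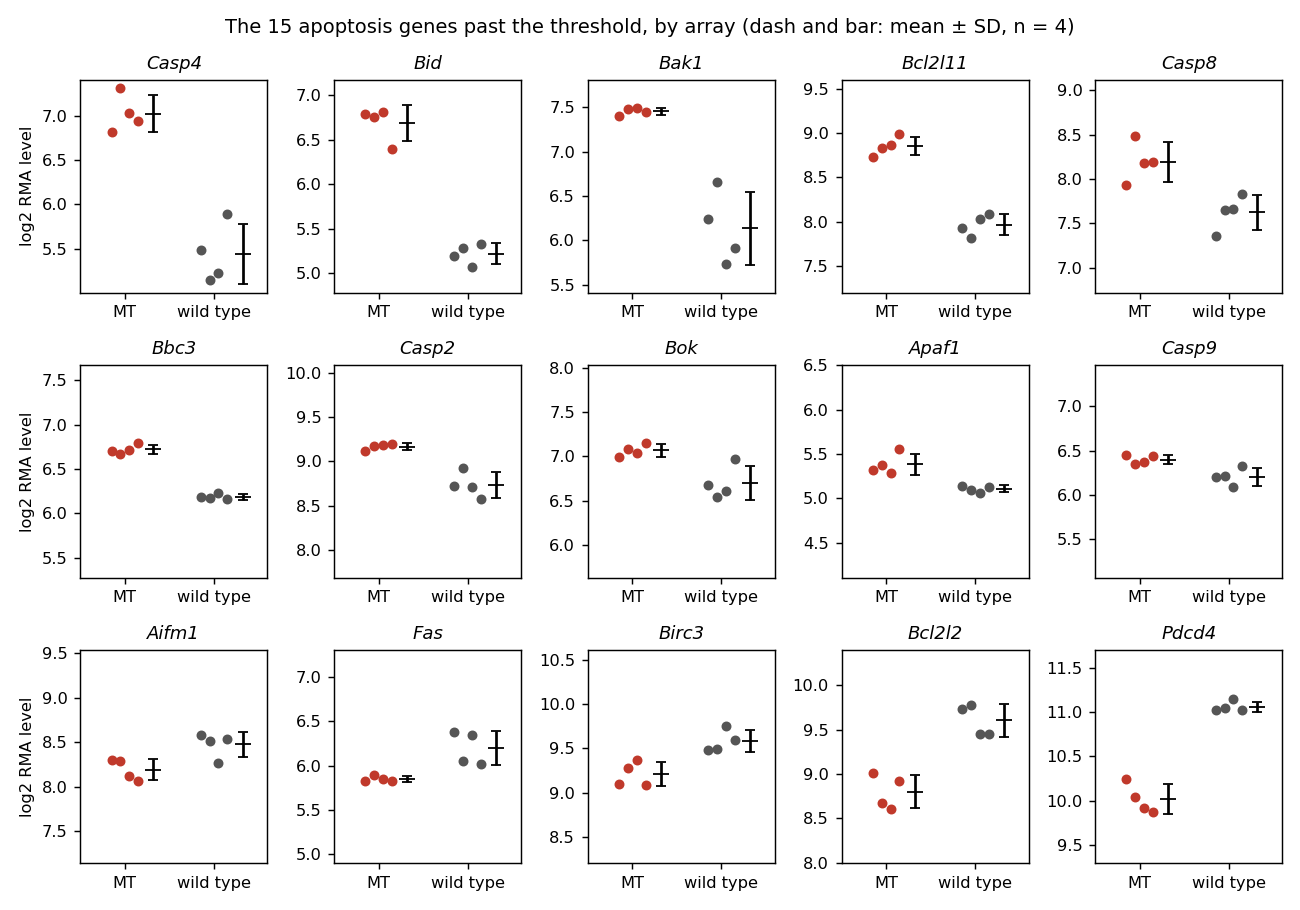
Log2 RMA level of each of the 15 apoptosis genes past the threshold on each of the 4 MT arrays (red) and 4 wild-type arrays (grey), with the mean and SD beside the points and the same length of axis in every panel. The groups do not overlap in any panel but that of Aifm1, where wild-type array 3 lies among the MT arrays.

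The anti-apoptotic BCL2 genes did not move together. Bcl2l2 encodes Bcl-w. It read 9.01, 8.67, 8.61 and 8.92 on the MT arrays and 9.74, 9.78, 9.44 and 9.45 on the wild-type arrays, so that all MT arrays were lower. The difference was -0.80 ± 0.11 (limma adjusted p = 0.000155). All 4 of its probe sets were lower, from -0.80 to -0.13, and 2 of the 4 passed, so the size rests on the brightest probe set. Averaged over its probe sets, Bcl2l2 was -0.34 (adjusted p = 0.00249).

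Bcl2, the founding member of the family, read 6.06, 6.13, 6.54 and 5.97 on the MT arrays and 6.44, 6.35, 6.48 and 6.39 on the wild-type arrays. The groups overlapped through MT array 3 alone. The difference was -0.24 (95% interval -0.48 to 0.00, limma adjusted p = 0.103), and without MT array 3 it was -0.36 (adjusted p = 0.00331). Bcl2l1, which encodes Bcl-xL and a shorter pro-apoptotic form, read 9.23, 9.07, 9.11 and 9.24 on the MT arrays and 8.96, 8.47, 8.80 and 9.14 on the wild-type arrays. Wild-type array 4 overlapped the MT arrays. The difference was 0.32 (95% interval 0.05 to 0.59, adjusted p = 0.0565). With same-numbered arrays as pairs it passed (adjusted p = 0.0184), as it did without wild-type array 4, at 0.42 (adjusted p = 0.0121). The 4 probe sets of Bcl2l1 ran from -0.06 to 0.32, and none passed when each was fitted on its own. The one at -0.06 read no higher than the highest bacterial control on 1 MT array and 2 wild-type arrays.

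Mcl1, a short-lived survival protein, differed by 0.20 (95% interval 0.03 to 0.37, limma adjusted p = 0.0596) by its brightest probe set, and passed with same-numbered arrays as pairs (adjusted p = 0.0347). Its 6 probe sets ran from -0.03 to 0.70, and 2 of them rose. These 2 were unique to a transcript, as was the one at -0.03, whereas the brightest was not. The probe set with the largest difference read 8.50, 8.54, 8.63 and 8.58 on the MT arrays and 7.91, 8.12, 7.68 and 7.74 on the wild-type arrays. The groups did not overlap in it, whereas the probe set at -0.03 read 9.70, 9.54, 9.36 and 9.46 on the MT arrays and 9.62, 9.53, 9.40 and 9.63 on the wild-type arrays. Averaged over the 6, Mcl1 was 0.25 higher in MT (adjusted p = 0.00795).

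Genes of the apoptosome and of proteins released from mitochondria showed small differences. Apaf1, the scaffold of the apoptosome, averaged 5.38 ± 0.12 in MT and 5.11 ± 0.04 in wild type (SD, n = 4 each), a difference of 0.28 ± 0.07 (limma adjusted p = 0.00871). Both of its probe sets passed. Casp9, the caspase that Apaf1 activates, was 0.19 ± 0.07 higher (adjusted p = 0.0394), a call lost when any of 7 arrays was left out, all but wild-type array 4 (adjusted p from 0.0553 to 0.0968). Its other probe set gave -0.12 (adjusted p = 0.361), and the average of both was 0.04 (adjusted p = 0.699).

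Aifm1, a mitochondrial flavoprotein that can act in death without caspases, differed by -0.28 ± 0.09 and so was lower (limma adjusted p = 0.0219). Aifm1 read 8.30, 8.28, 8.12 and 8.06 on the MT arrays and 8.58, 8.52, 8.27 and 8.54 on the wild-type arrays, where the groups overlapped at wild-type array 3. The call was lost without MT array 3, MT array 4, wild-type array 1 or wild-type array 4 (adjusted p from 0.0526 to 0.0688). Cycs, cytochrome c, was -0.10 (95% interval -0.29 to 0.09, adjusted p = 0.406) by its brightest probe set, while its other 2 probe sets fell, by 0.25 and 0.47. Averaged over the 3, Cycs was -0.27 (adjusted p = 0.0169). Diablo, which relieves caspases of IAPs, differed by 0.02 (95% interval -0.12 to 0.16).

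No IAP gene among the 3 members had a rise in its brightest probe set. Birc3, an ubiquitin ligase of tumour necrosis factor and NF-kB signalling, went in opposite directions by probe set. Its brightest probe set read 9.10, 9.28, 9.37 and 9.08 on the MT arrays and 9.48, 9.49, 9.75 and 9.60 on the wild-type arrays, a difference of -0.37 ± 0.09 (limma adjusted p = 0.00577). Its other probe set read 5.43, 5.32, 5.27 and 5.53 on the MT arrays and 5.02, 4.99, 4.99 and 5.07 on the wild-type arrays, a difference of 0.37 ± 0.07 (adjusted p = 0.00164 over all probe sets). Neither pair of groups overlapped, and the average of both was 0.00 (adjusted p = 0.973), so that no direction is given for Birc3. Birc2, its neighbour on chromosome 9, differed by -0.05 (95% interval -0.19 to 0.10). Xiap, which binds and inhibits caspases directly, differed by -0.17 (95% interval -0.39 to 0.05), and all 6 of its probe sets were lower, from -0.35 to -0.04, with none passing. Of those 6, 3 read no higher than the bacterial control probe sets on all 8 arrays, and another did so on 4 MT and 3 wild-type arrays.

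Death receptor genes went both ways. Fas, the receptor itself, read 5.83, 5.90, 5.85 and 5.83 on the MT arrays and 6.38, 6.05, 6.35 and 6.02 on the wild-type arrays. The MT arrays lay close together and below all wild-type arrays, and the difference was -0.35 ± 0.09 (limma adjusted p = 0.00866). Casp8, the caspase at the receptor, read 7.93, 8.48, 8.18 and 8.19 on the MT arrays and 7.36, 7.65, 7.66 and 7.83 on the wild-type arrays. It was higher without overlap, by 0.57 ± 0.12, 1.48-fold (adjusted p = 0.00318). Fadd, the adaptor between them, differed by 0.15 (95% interval -0.04 to 0.34, adjusted p = 0.183).

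Cflar lies next to Casp8 on chromosome 1 and encodes FLIP, which resembles caspase 8 and holds it in check. By its brightest probe set it was -0.15 (95% interval -0.35 to 0.05, limma adjusted p = 0.206). All 4 of its probe sets were lower, down to -0.41, and 2 of them passed. The lowest of these read 4.92, 4.87, 5.05 and 5.01 on the MT arrays and 5.50, 5.36, 5.35 and 5.25 on the wild-type arrays, with no overlap. Averaged over the 4, Cflar was -0.28 (adjusted p = 0.0074). Whether Casp8 and Cflar differ in their response was not tested. Ripk3, a kinase of necroptosis, differed by 0.18 (95% interval -0.19 to 0.55).

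**Figure D3:**
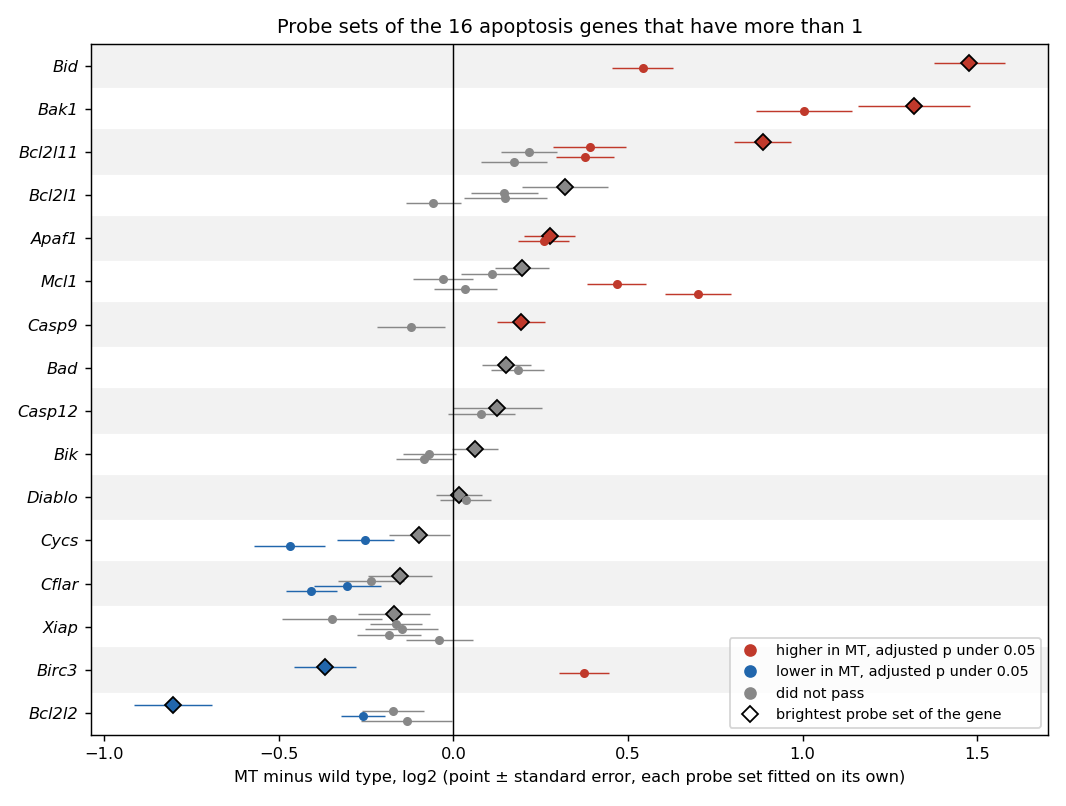
Difference between MT and wild type on the log2 scale for every probe set of the 16 apoptosis genes with more than 1, with bars of 1 standard error and diamonds for the brightest probe set of each gene. Both probe sets of Birc3 passed in opposite directions, at -0.37 and 0.37, and the 6 probe sets of Mcl1 run from -0.03 to 0.70.

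Probe sets of the same gene thus gave different calls for 7 of the 16 members that have several, namely Bcl2l11, Bcl2l2, Birc3, Casp9, Cflar, Cycs and Mcl1. With every probe set fitted on its own, 18 of the 66 were higher and 10 were lower, 42.4% against 38.4% of all single-symbol probe sets. Among the 32 pro-apoptotic probe sets 14 were higher and 4 lower. Among the 28 anti-apoptotic probe sets 3 were higher and 5 lower. Probe sets of 1 gene share its transcripts and are not replicates.

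Of the remaining apoptotic caspases, Casp2 rose and Casp6 did not pass. Casp2, which acts in the response to DNA damage and to faulty cell division, read 9.12, 9.17, 9.19 and 9.19 on the MT arrays and 8.72, 8.92, 8.71 and 8.57 on the wild-type arrays. It was higher on all MT arrays, by 0.44 ± 0.08 (limma adjusted p = 0.00088). Casp6, an executioner, differed by -0.09 (95% interval -0.22 to 0.04).

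The inflammatory caspases Casp1, Casp4 and Casp12 lie side by side on chromosome 9, with Casp4 in the middle. Casp4 encodes caspase 11 of the mouse, which senses bacterial lipopolysaccharide in the cytosol and starts pyroptosis, a lytic form of death. It read 6.82, 7.31, 7.02 and 6.94 on the MT arrays and 5.49, 5.14, 5.23 and 5.90 on the wild-type arrays. All MT arrays were higher, and the difference was 1.58 ± 0.16, 2.99-fold (limma adjusted p = 1.21e-05). Casp1, which matures interleukin 1 beta, averaged 3.84 ± 0.12 in MT and 3.79 ± 0.07 in wild type (SD, n = 4 each), close to background, with 1 of the 4 wild-type arrays at or below its highest bacterial control. Its difference was 0.04 (95% interval -0.12 to 0.21), and that of Casp12 was 0.13 (95% interval -0.15 to 0.40). The contrast between Casp4 and its neighbours was not tested.

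Pdcd4, which restrains translation by binding the helicase of the initiation complex, fell furthest. It read 10.25, 10.04, 9.92 and 9.87 on the MT arrays and 11.02, 11.05, 11.15 and 11.02 on the wild-type arrays. All MT arrays were lower, and the difference was -1.04 ± 0.09, 2.05-fold lower (limma adjusted p = 2.99e-06). Pdcd4, Casp4, Bid, Bak1 and Bcl2l11 were also the members that passed a limma test against a minimum log2 change of 0.5 (adjusted p from 2.94e-05 to 0.00547).

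Other genes of these pathways came from lists drawn up by pathway, with earlier results of these data known. Their counts stand beside the 19.7% of all genes higher and 21.3% lower in MT. Of 14 further BCL2 family and BAG genes, 5 were higher and 2 lower. Pmaip1, the BH3-only protein Noxa, averaged 5.45 ± 0.17 in MT and 3.73 ± 0.22 in wild type (SD, n = 4 each), where 1 of the 4 arrays lay within the range of the bacterial controls. Its difference was 1.72 ± 0.12. Bcl2l14 and Bcl2l15, both of the BCL2 family, rose by 1.71 ± 0.14 and 1.22 ± 0.11, while the co-chaperone Bag5 fell by 0.62. In the limma fit the adjusted p-value was lowest for Pmaip1, at 7.62e-07, and highest for Bag5, at 0.00026.

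Of 21 death ligands, receptors and adaptors, 10 were higher and 0 lower in limma, or 47.6% and 0%, against 19.7% and 21.3% of all genes. At an unadjusted p under 0.05, 0 were lower as well. The ligands Ltb (1.81 ± 0.15) and Tnf (1.03 ± 0.10) rose, as did Tnfrsf12a (1.57 ± 0.07), the receptor of Tweak, and Tnfaip3 (0.81 ± 0.08), which ends NF-kB signalling. Of 5 further IAP genes 1 passed, or 20%, against 41.1% of all genes. This was Birc5, which is made mainly by dividing cells and rose by 2.25 ± 0.14. None of the 5 passed as lower in limma, but 2 were lower at an unadjusted p under 0.05 and 2 passed as lower with same-numbered arrays as pairs. Among 9 genes of necroptosis and pyroptosis 33.3% passed. Zbp1 (1.67 ± 0.17, and 1.03 with unique probe sets), a sensor of Z-form nucleic acid, and Il1b (0.97 ± 0.10) rose, and the inflammasome adaptor Pycard fell by 0.29.

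Of 15 other caspase genes, caspase substrates and regulators, 1 was higher and 3 lower, or 6.67% and 20%, against 19.7% and 21.3% of all genes. The mitochondrial protease Htra2 fell by 0.65, Endog, a nuclease, by 0.33 (not past the threshold without MT array 3, adjusted p = 0.0587, nor with unique probe sets, at -0.14, adjusted p = 0.174) and Apip, which binds Apaf1, by 0.21 (not past the threshold without MT array 4, adjusted p = 0.0613), while Dffa, the inhibitor of the apoptotic nuclease, rose by 0.26. Of 6 regulators of BCL2 family genes 2 rose, or 33.3%. Trp53inp1, a p53 target, rose by 1.36 ± 0.09 and Foxo3, a transcription factor of Bcl2l11 and Bbc3, by 0.89 ± 0.09 (0.57 averaged over its probe sets). Of the 6 regulators 2 were lower at an unadjusted p under 0.05, and 2 passed as lower with same-numbered arrays as pairs. Adjusted p-values of the genes named in these lists ran from 3.59e-08 to 0.0211.

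**Figure D4:**
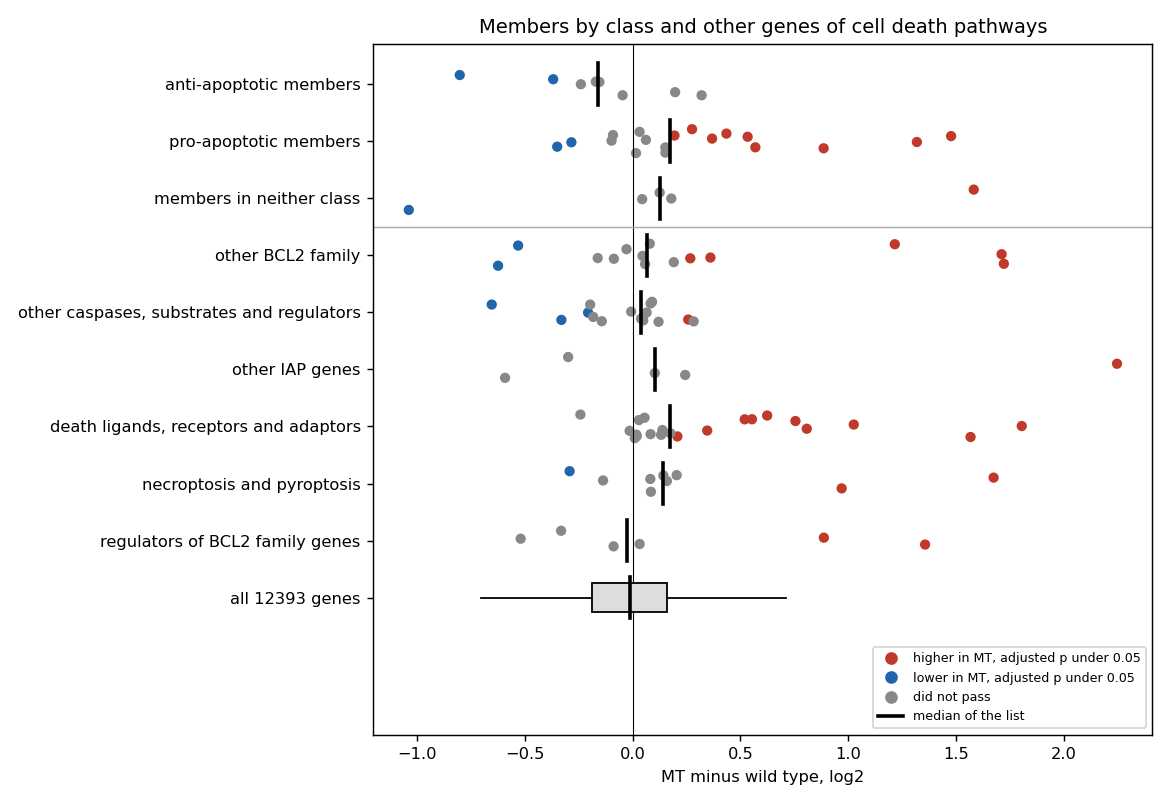
Difference between MT and wild type on the log2 scale for each member by class (above the grey line) and each gene of the other cell death lists (below it), with black ticks at the medians. The bottom row shows all 12393 genes, with a box from the 25th to the 75th percentile and a line from the 5th to the 95th percentile. The median of the pro-apoptotic members is 0.17 and that of the anti-apoptotic members is -0.16.

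Many markers of cell types and of the interferon response also differed between MT and wild type. Their counts stand beside the 19.7% of all genes higher and 21.3% lower. Genes of luminal epithelium were higher for 8 of 9 (mean level from 11.37 to 11.57 on MT arrays and from 11.02 to 11.22 on wild-type arrays), and the secretory product Pbsn was lower. Smooth muscle genes were lower for 8 of 8 (8.06 to 8.85 on MT arrays, 9.06 to 9.78 on wild-type arrays) and fibroblast genes for 6 of 8 (7.97 to 8.57 on MT arrays, 8.50 to 9.24 on wild-type arrays), with 1 fibroblast gene higher. Macrophage genes were higher for 6 of 11 and lower for 1 (7.12 to 7.31 on MT arrays, 6.43 to 6.99 on wild-type arrays), neutrophil genes for 3 of 7 (5.32 to 5.68 on MT arrays, 4.48 to 4.60 on wild-type arrays), T cell genes for 3 of 5 (5.31 to 5.55 on MT arrays, 4.996 to 5.11 on wild-type arrays) and B cell genes for 1 of 4, or 2 of 4 with arrays paired (5.62 to 6.91 on MT arrays, 4.72 to 5.04 on wild-type arrays). Of 7 endothelial genes, 1 was lower, and 1 was higher with arrays paired (4.83 to 4.91 on MT arrays, 4.69 to 5.04 on wild-type arrays). Interferon-response genes were higher for 10 of 10 (9.03 to 9.55 on MT arrays, 5.90 to 6.36 on wild-type arrays). None of these marker genes lay within background on all 8 arrays. The excess of the 3′ over the 5′ probe set of Gapdh, a sign of RNA wear, was 0.45 to 0.64 on the MT arrays and 0.54 to 0.92 on the wild-type arrays. The part of these differences in the results for apoptosis genes was not tested.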

How the data were processed

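Gene expression was measured on Affymetrix arrays in 4 MT and 4 wild-type samples. The authors deposited log2 values, made with RMA per the submitters' processing notes, with the version not given in the sources used here. All 8 columns were used as deposited. Precision is set by the 4 arrays per group. A further 691 probe sets with more than 1 symbol and 1555 without a symbol were left unnamed.

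Each gene was represented by its brightest probe set, that is, by the highest average of all 8 arrays. The main test was limma (lmFit and eBayes, two-sided, no covariate, Benjamini-Hochberg adjustment over 12393 genes, threshold 0.05), and a separate fit covered all 20380 single-symbol probe sets. Adjusted p-values come from these fits, and errors of differences are standard errors. The fit was tested on simulated data. Background is the highest of 12 control probe sets for Bacillus transcripts on an array (2.57 to 3.90 over all 12 and all arrays).

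Every member is named. Of each list of other genes, up to 4 past the threshold with the largest changes are named. The members, lists and classes were chosen with earlier results of these data known. Same-numbered arrays deviated together from their group means (correlations across genes from 0.10 to 0.18, all over 0.1), so the number was treated as a pairing in a check. This pairing comes from the titles' numbers and the data, not from a stated litter or batch. Correlations between arrays of different numbers are not given here, so these values alone do not show that a pairing exists.

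Alternatives were renewed scaling, other probe set rules, a filter on low levels, another prior, array weights, the pairing, stricter thresholds and left-out arrays. Running them on the genes and lists outside the members was added after seeing the data. Promoter windows came from RefSeq (GRCm38.p6). Fits used limma 3.58.1 in R 4.3.3. Promoter searches used pandas 2.3.3 and plots matplotlib 3.10.9, both under Python 3.11.15.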

Additional observations from a re-analysis of the deposited data

Results flagged for a closer look

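In 2 of the 62 groups of 4 arrays examined, an array stood far from the other three by Dixon's test, where chance gives about 1 in 20. Bad read 7.97 on wild-type array 3, against 7.74 to 7.76 on the other wild-type arrays. Bid read 6.39 on MT array 4, against 6.76 to 6.82 on the other MT arrays.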

How the results depend on the processing

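The 31 members gave 607 differences under 20 alternatives, of which 552 kept their direction and side of the threshold, 26 lost the call, 17 gained it and 12 turned sign. The number of genes past the threshold was 5088, and 877 in a test against a log2 change of 0.5, which left 4 members higher, 1 lower, 3 pro-apoptotic genes higher and 0 lower, and 0 anti-apoptotic genes lower. Leaving out each array in turn gave 4476 to 4972 genes, 9 to 11 members higher and 4 to 5 lower, 8 to 9 pro-apoptotic genes higher and 1 to 2 lower, and 0 to 1 anti-apoptotic genes higher and 2 to 3 lower. Over the alternatives that gave a median, it ran from 0.15 to 0.25 for the pro-apoptotic and from -0.19 to -0.09 for the anti-apoptotic genes. The count of anti-apoptotic genes higher was 1 with renewed quantile scaling, averaged probe sets, probe sets unique to a transcript, or without both wild-type array 4 and MT array 2. It was 2 among genes above the median level, with a trended robust prior, and with the replicate block that pairs same-numbered arrays, where 12 members were higher and 5211 genes passed. The pairing changed no member's call but those of Bcl2l1 and Mcl1, and gave 2 other IAP genes and 2 regulators lower, and 2 B cell genes and 1 endothelial gene higher. With unique probe sets 1 anti-apoptotic gene was lower. Among genes above the median level 5 pro-apoptotic genes were higher and 1 lower, with fewer genes tested, and 1 was lower at a threshold of 0.01 and without both arrays. Directions turned for Birc3 (0.00268 averaged, 0.374 unique), Mcl1 (-0.0305 unique) and Bik (-0.0306 averaged, -0.0687 unique). They also turned for 4 genes that never passed, where leaving out each array gave -0.0714 to 0.00244 for Birc2, -0.0185 to 0.0728 for Bmf, -0.0102 to 0.0828 for Casp1 and -0.00765 to 0.0381 for Diablo, and leaving out both arrays -0.0489 for Bmf and -0.0106 for Diablo. The cause was not tested. Signal close to background limits Casp1 and 3 probe sets of Xiap. A further Xiap probe set lay within background on 4 MT and 3 wild-type arrays. Single probe sets of Bcl2l1, Bcl2l11 and Casp12, none of them the brightest, did so on some arrays.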
